A study of Homo sapiens with 10 samples.

Results

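The 1844 genomic regions that were called as bound by TRPS1 in T47D cells are described here by where they lie along the human genome: how many fall on each chromosome, how close they lie to each other, which stretches hold many or none, and how wide they are. All 1844 peaks of the single deposited list were used, with no division by distance to a gene. T47D is an established luminal breast carcinoma cell line that expresses the estrogen receptor. Chromatin immunoprecipitation followed by sequencing (ChIP-seq) with a TRPS1 antibody gave 2 libraries, with 2 input libraries. The labels name no transfection for these cells. A single list of peaks, with neither heights nor scores, was deposited for the 2 TRPS1 libraries. RNA-seq was available from T47D cells harvested 72 h after transfection with a control siRNA (2 libraries), an siRNA against *TRPS1* (2) or an siRNA against *CHD4* (2). Whether the replicates came from separate cultures is not given in the sources used here, so any p-value measures only the spread between these libraries. With 1 list there is no replicate error for a peak count, and each 95% interval of a peak count (exact Poisson) or of a share (Wilson) covers counting error only.

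TRPS1 is an atypical member of the GATA family of zinc finger transcription factors, which bind short DNA elements with GATA at their core. Unlike the other GATA factors it is known mainly as a repressor, and it is highly expressed in breast epithelium and in luminal breast cancer. Sites bound by such factors are seldom spread evenly: promoters and enhancers are concentrated around the genes a cell uses, and groups of neighbouring enhancers often surround genes that define the cell type. CHD4 is the ATP-dependent helicase of the NuRD complex, a corepressor that combines nucleosome remodelling with histone deacetylation.

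The RNA libraries held between 10333138 and 14668358 counts each. Luminal markers were present as the cell line's label implies, with 9 of 9 (*ESR1*, *PGR*, *GATA3*, *FOXA1*, *KRT8*, *KRT18*, *KRT19*, *EPCAM* and *CDH1*) over 2 CPM (counts scaled to library size) in both control libraries. Of 6 basal or mesenchymal markers only *FN1* was over 2 CPM in both control libraries, and *KRT5* had no count. Of 7 markers of fibroblasts, endothelium and blood cells only *COL1A1* was, while 5 had at most 3 counts in either control library. The control siRNA libraries correlated with each other less well (r = 0.873 over log2 CPM of 12921 tested genes) than the *TRPS1* siRNA pair (0.976) or the *CHD4* siRNA pair (0.966). *TRPS1* measured 1423 and 2234 CPM in the control libraries and 1147 and 716 CPM after *TRPS1* siRNA, so that both knockdown libraries were below both controls (log2 fold change −0.97 ± 0.39 SE, unadjusted p = 0.0459 by edgeR's quasi-likelihood test). *CHD4* fell from 296 and 281 CPM to 94.9 and 53.8 CPM after *CHD4* siRNA.

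Of all peaks, 275 (14.9%) overlapped a promoter window of the RefSeq table, which holds the bases from 250 before to 50 after a gene start on GRCh38.p14, the same build as the peaks (hg38). In such windows the DNA under a peak can be read. Both strands were searched for the hexamer AGATAA and for its variants, which were TGATAA with another first base, AGATAG with another last base and TGATAG with both. At least 1 of these 4 was present in 25% of all 34789 windows, in 45.9% of the 366 windows that a peak touched (95% interval 40.9 to 51.0) and in 52.1% of the 265 windows that a peak covered over at least 150 bases (46.1 to 58.0). The longer AGATAAGG, which contains the first hexamer, was found in 0.828% of all windows and in 2.73% of those that a peak touched (1.49 to 4.96). The peak-touched windows were also richer in G and C (61.7% against 57.5% of bases). These shares count letters and do not show which site was bound. The search covered all 300 bases of a window, also those outside the peak. The 366 windows were touched by 275 peaks, so some share a peak, whereas the intervals treat every window as separate and may be too narrow.

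Among the genes named below and read here, 5 had a peak that covered at least 100 of the 250 bases before a RefSeq start. The covered bases are printed 5′ to 3′ on the strand of the gene, with the hexamer, where there is 1, in capitals. Each comes from a single peak of its cluster, chosen because it covers a start, so they do not describe the other peaks. Of all peaks 14.9% overlapped a promoter window. The starts read in *GSE1* and *EHF* lie inside these genes, whose annotated bodies begin at chr16:85169512 and chr11:34621093. The stretches lie at chr16:85613198-85613321 (*GSE1*, plus strand), chr10:28303065-28303307 (*MPP7*, minus strand), chr11:102347131-102347373 (*BIRC2*, plus strand), chr1:234373531-234373700 (*COA6*, plus strand) and chr11:34632316-34632565 (*EHF*, plus strand).
GSE1: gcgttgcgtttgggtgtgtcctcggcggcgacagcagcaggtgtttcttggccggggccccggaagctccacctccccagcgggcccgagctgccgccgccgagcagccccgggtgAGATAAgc
MPP7: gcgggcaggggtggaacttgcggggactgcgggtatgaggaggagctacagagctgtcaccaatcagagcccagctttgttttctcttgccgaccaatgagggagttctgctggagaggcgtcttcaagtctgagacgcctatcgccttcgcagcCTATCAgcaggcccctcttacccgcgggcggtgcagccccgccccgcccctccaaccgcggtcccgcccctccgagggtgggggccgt
BIRC2: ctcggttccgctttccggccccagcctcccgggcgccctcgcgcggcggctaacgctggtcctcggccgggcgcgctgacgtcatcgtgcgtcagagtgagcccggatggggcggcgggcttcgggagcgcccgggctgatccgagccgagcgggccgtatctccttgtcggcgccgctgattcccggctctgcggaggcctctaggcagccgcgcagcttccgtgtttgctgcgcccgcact
COA6: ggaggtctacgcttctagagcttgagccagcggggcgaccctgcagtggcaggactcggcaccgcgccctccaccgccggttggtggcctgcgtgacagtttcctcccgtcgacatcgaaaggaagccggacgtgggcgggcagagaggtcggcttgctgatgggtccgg
EHF: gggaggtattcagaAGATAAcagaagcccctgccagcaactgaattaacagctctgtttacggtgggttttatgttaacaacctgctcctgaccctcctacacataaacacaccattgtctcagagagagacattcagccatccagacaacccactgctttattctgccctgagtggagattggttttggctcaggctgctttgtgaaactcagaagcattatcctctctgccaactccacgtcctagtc
The stretches of *GSE1*, *MPP7* and *EHF* held 1 hexamer each (CTATCA in *MPP7* is the last variant on the other strand), and those of *BIRC2* and *COA6* held none of these letters. The *EHF* stretch was 47.6% G and C, and the other 4 were 65.8% to 73.7%.

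TRPS1 peaks were found on every chromosome from 1 to 22 and on X, with 1842 peaks on these 23 chromosomes and 2 on sequences not placed in a chromosome. Chromosome lengths were taken as the span from the first to the last RefSeq gene, 3029 Mb in all, which gave 0.608 peaks per Mb. The plot of densities shows the order of the chromosomes. Chromosome 19 had 1.21 peaks per Mb (95% interval 0.947 to 1.53, 71 peaks) and chromosome 11 had 1.18 (1.0 to 1.38, 159 peaks). Chromosomes 17, 12 and 21 followed with 0.997, 0.968 and 0.964 peaks per Mb. At the other end, chromosome X had 0.205 peaks per Mb (0.14 to 0.29, 32 peaks), chromosome 13 had 0.219 (25 peaks), chromosome 18 had 0.224 (18 peaks), chromosome 4 had 0.3 (57 peaks) and chromosome 15 had 0.373 (38 peaks). The intervals of every neighbouring pair in this order overlapped, so the exact rank of a chromosome is not fixed, whereas the intervals of chromosomes 19 and 11 lay far above those of X, 13, 18 and 4. In numbers of peaks chromosome 1 came first with 176 (9.54% of the peaks on 8.22% of the span), followed by 11 with 159 and 3 with 156.

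**Figure D1:**
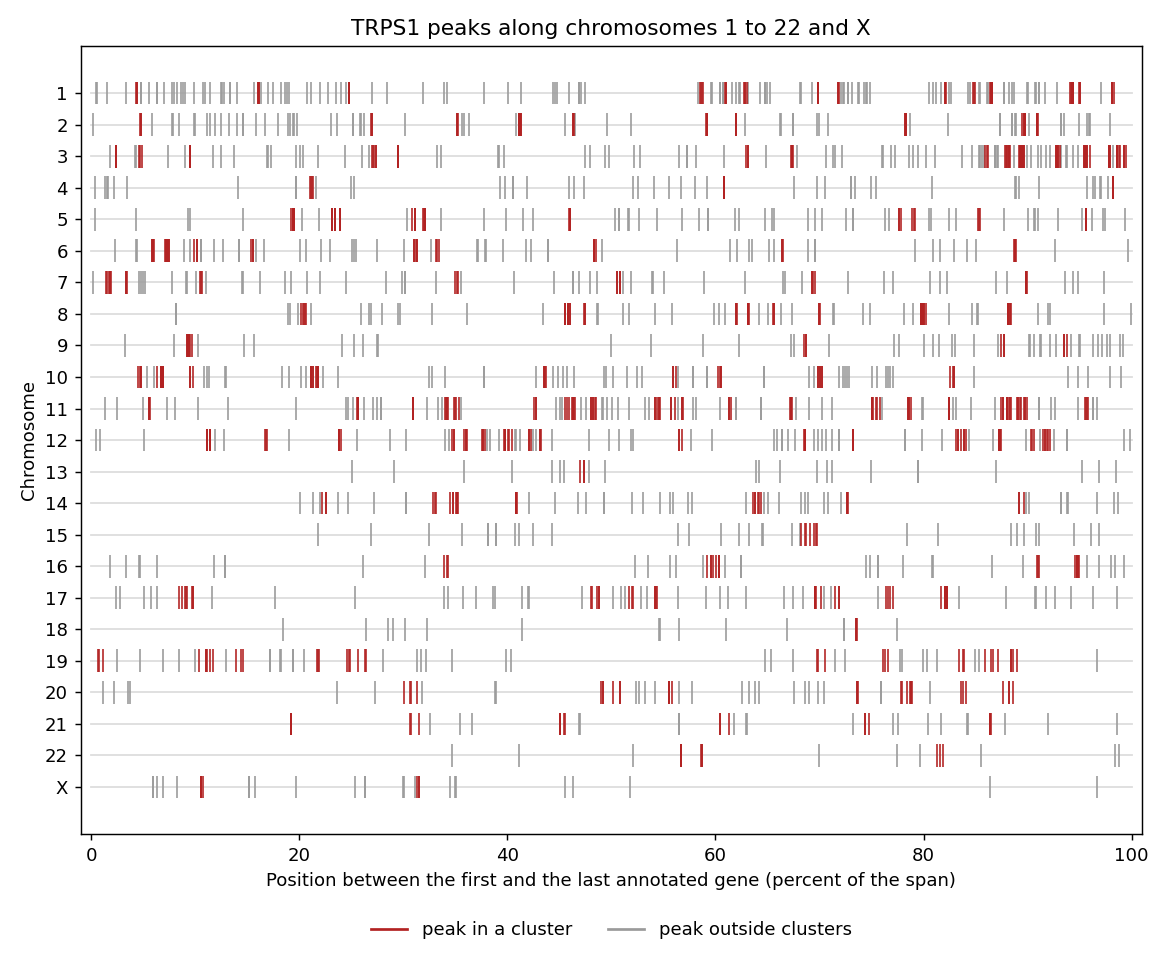
Each vertical tick is 1 TRPS1 peak, placed along its chromosome (rows) as a percent of the span between the first and the last annotated gene. Red ticks are the 839 peaks in clusters of 3 or more, grey ticks the others, and long empty stretches are visible on chromosomes X, 9, 1 and 4.

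The order changed when peaks were counted per expressed gene. An expressed gene was a protein-coding gene over 2 CPM in both control siRNA libraries (11027 of 19974). Chromosome 21 had 41.3 peaks per 100 expressed protein-coding genes, followed by chromosome 8 with 25.8, chromosome 10 with 24.8, chromosome 3 with 24.6 and chromosome 11 with 24.1. Chromosome 19, the first per Mb, was next to last with 8.47, between chromosome 22 with 7.55 and chromosome X with 8.96. On chromosome 21, 45 peaks lay beside 109 expressed genes, and on chromosome 19, 71 peaks beside 838. The chromosome 21 peaks include 4 within 5.62 kb (chr21:8994305-8999920) with no annotated gene, 360 kb from the nearest protein-coding gene. The list was not filtered here for repeated sequence, and whether these 4 are artifacts was not tested. Across the 23 chromosomes, peaks per Mb and protein-coding genes per Mb had a Pearson r of 0.65 and a Spearman rho of 0.6. Without chromosomes 19 and 17, which lay farthest from the median gene density, these were 0.57 and 0.47. With expressed genes per Mb the values were 0.64 and 0.64, and 0.52 and 0.54 without chromosomes 19 and 17. The chromosomes share the same ChIP libraries, so these correlations are descriptions.

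**Figure D2:**
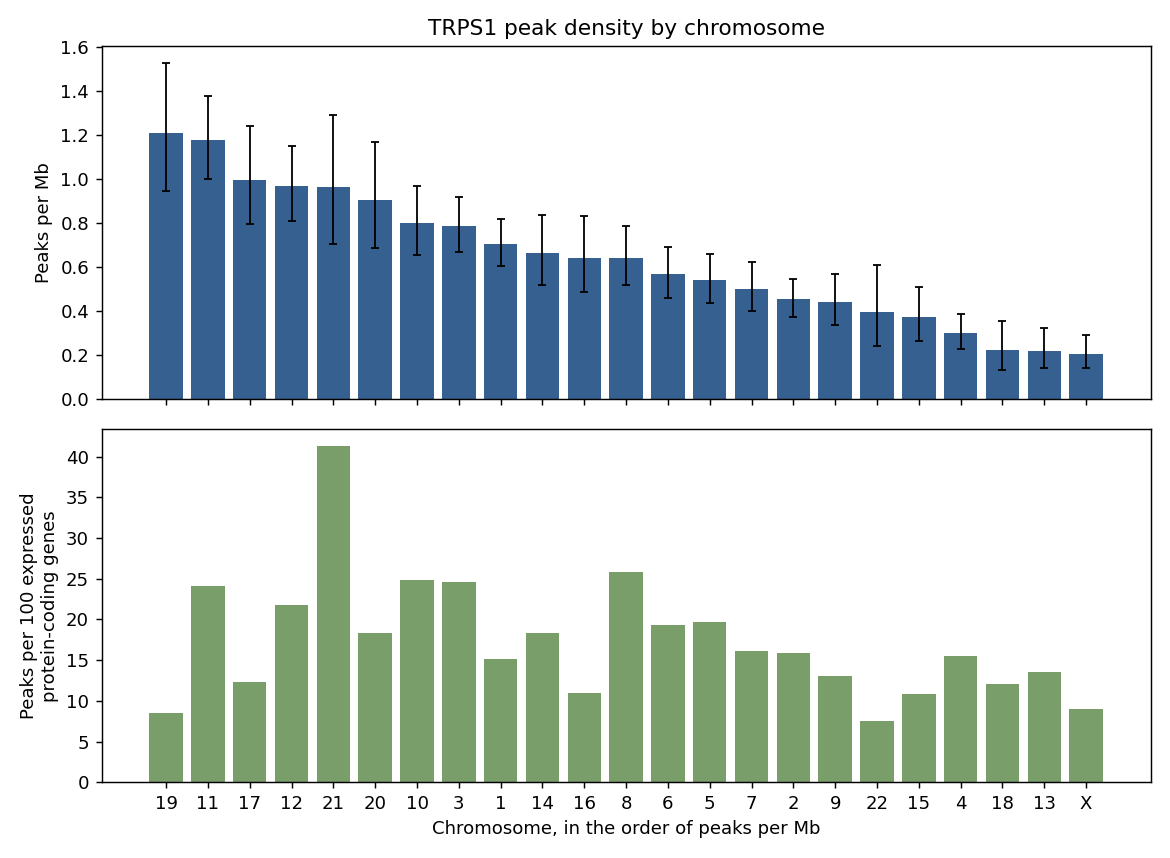
The upper bars give TRPS1 peaks per Mb for each chromosome with exact Poisson 95% intervals, and the lower bars give peaks per 100 expressed protein-coding genes for the same order of chromosomes. Chromosome 19 is first in the upper panel (1.21) and next to last in the lower (8.47), where chromosome 21 stands first (41.3).

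Windows with more genes more often held a peak, over all chromosomes together. The span was divided into 3043 windows of 1 Mb, of which 2063 (67.8%, 95% interval 66.1 to 69.4) held no peak, 573 held 1 and 208 held 2. The remaining 199 windows (6.54%) held 3 or more and took in 853 peaks, 46.3% of those placed. A peak was present in 9.92% of the 504 windows without a protein-coding gene, in 25.5% of those with 1 to 5 such genes, in 44.8% of those with 6 to 10, in 48.9% of those with 11 to 20 and in 60.1% of the 208 with over 20. For expressed genes the range was wider, from 10.9% of the 943 windows without an expressed gene (95% interval 9.09 to 13.1) to 77.0% of the 61 with over 20 (65.1 to 85.8). Gene-rich windows were few and so took a small part of the peaks. The 208 windows with over 20 protein-coding genes held 276 peaks (15%), a mean of 1.33 per window. Windows with at most 5 held 739 (40.1%). Of these peaks 100 lay in the 504 windows with none (a mean of 0.198) and 639 in the 1319 with 1 to 5 (0.484). The variance of peaks per window was 2.51 times the mean of 0.605, and the fullest window held 13.

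Neighbouring peaks were far closer than their mean density. The 1819 pairs of neighbours lay a median of 471 kb apart, against a mean of 1538 kb, with quartiles of 85.1 and 1661 kb. Of these pairs, 59 (3.24%) were at most 1 kb apart, 182 (10.0%) at most 10 kb and 926 (50.9%) at most 500 kb, and 39 were over 10 Mb apart. The smallest distance between midpoints was 307 bp. By contrast 316 peaks (17.2%) had no other peak within 1 Mb.

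A cluster was defined as a run of 3 neighbouring peaks whose first and last midpoints lay at most 500 kb apart, and runs that shared a peak were joined. This gave 178 clusters with 839 peaks, 45.5% of all (95% interval 43.2 to 47.8). They covered 70.9 Mb, 2.34% of the span, with a median length of 359 kb (2.5 to 1304 kb). The sizes fell off steadily: 80 clusters held 3 peaks, 33 held 4, 19 held 5, 14 held 6 and 8 held 7, and 24 clusters held 8 or more, which together took in 232 peaks (12.6%). The share of a chromosome's peaks in clusters ran from 12% on chromosome 13 and 16.7% on chromosome 18 to 62.3% on chromosome 11 and 58.9% on chromosome 12. The clusters overlapped 1118 of the 19974 protein-coding genes (5.6%). Of the genes in clusters 70.6% were expressed, against 55.2% of all. There were 23 clusters without any protein-coding gene, 34 with 1 and 32 with 10 or more. The plots of spacing and cluster size show both distributions.

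The cluster with the most peaks lay at the gene of the immunoprecipitated factor itself. It held 14 peaks over 656 kb (chr8:115668748-116325140). Its first peak (chr8:115668748-115669217, 470 bp) overlapped the 5′ end of *TRPS1*, which is read from the minus strand, and 13 lay upstream of the gene in the direction of *EIF3H*, a translation initiation factor subunit whose gene lay 317 kb beyond the last peak. These included peaks of 1097, 929, 804 and 704 bp, and 4 lay within the noncoding transcript *LINC00536*. The median width in this cluster was 417.5 bp, wider than the 288 bp of all peaks. The 656 kb held no protein-coding gene other than *TRPS1*.

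Next came a pair of clusters with 13 peaks each. The first lay on chromosome 6 (chr6:12279276-12845894, 567 kb), from *EDN1*, which encodes the vasoconstrictor peptide endothelin-1, into *PHACTR1*, a regulator of protein phosphatase 1 and actin. A peak lay in *EDN1*, 3 in *PHACTR1* and 9 in the interval between these genes, 1 of them 1068 bp wide. The other lay in a stretch of chromosome 10 without protein-coding genes (chr10:8544500-9227377, 683 kb). Its nearest protein-coding gene was *GATA3*, the GATA factor that specifies luminal breast cells, 469 kb away, and *CELF2*, an RNA-binding protein, lay 1235 kb off on the other side. In this cluster 11 of the peaks lay in the last 191 kb, and 3 pairs of neighbours were under 2 kb apart.

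Other large clusters sat on or beside a single long gene. *GSE1*, which encodes a coiled-coil protein found in histone deacetylase corepressor complexes, held all 12 peaks of its cluster in its body (chr16:85322065-85613536, 291 kb), more than any other gene. *AFF3*, a nuclear protein of the AF4 family, held all 9 peaks of its cluster (chr2:99609809-100067392), among them a peak of 1150 bp. On chromosome 3, 12 peaks surrounded *TBL1XR1*, an exchange factor of the NCoR and SMRT corepressors (chr3:176855341-177810412). On chromosome 1, 11 peaks ran from within *KCNK2*, a potassium channel, to 63 bp from *KCTD3* (chr1:215146430-215567240), and on chromosome 12, 10 peaks lay in and beside *MED13L*, a subunit of the Mediator kinase module (chr12:116262832-116503560). The plot of cluster layouts shows that the peaks were not evenly placed inside the clusters: in the *MED13L* cluster 7 peaks lay within 36.5 kb and the other 3 lay 91.1 to 204 kb beyond them.

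**Figure D3:**
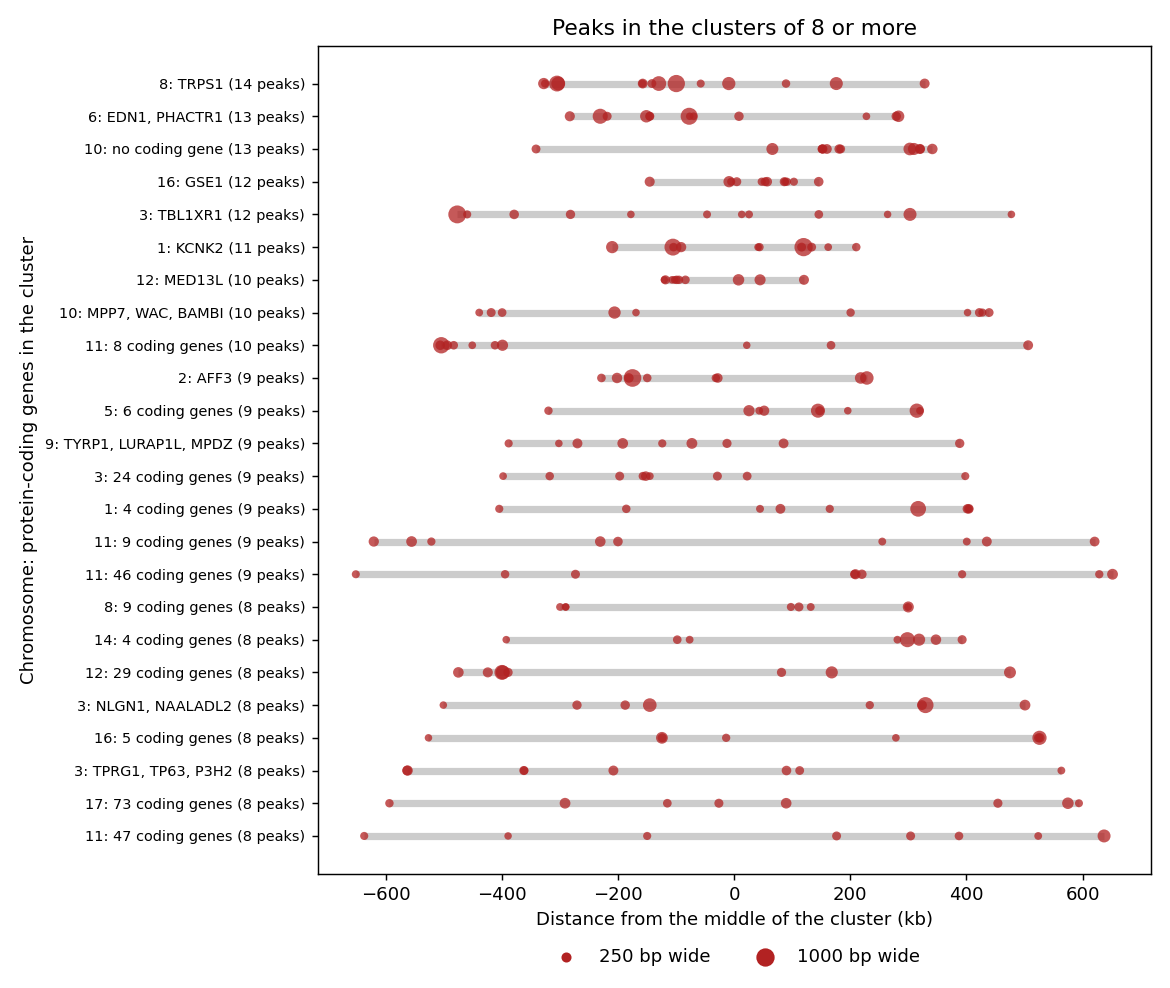
Each row is 1 of the 24 clusters with 8 or more peaks, named by chromosome and protein-coding genes. Circles are peaks at their distance in kb from the middle of the cluster, with area in proportion to width, and grey bars show the extent, from 241 kb (*MED13L*) to 1304 kb (the cluster with 46 coding genes).

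The remaining clusters of 8 or more peaks held up to 73 protein-coding genes each, and some of them are described here, chosen after their genes were seen. 10 peaks lay on chromosome 10 across *MPP7*, *WAC* and *BAMBI* (chr10:28263594-29142107), the last a pseudoreceptor that dampens TGF-beta signalling. Another 10 lay on chromosome 11 (chr11:101334634-102347492), and the last covered the start of *BIRC2*. Of these peaks 7 fell within 108 kb at the end towards *PGR*, the progesterone receptor gene, which lay outside the cluster 205 kb away. The first protein-coding gene inside the cluster was *TRPC6*, which held none of these 7 peaks. This cluster also contained *YAP1*, the effector of Hippo signalling. A cluster of 9 peaks held *PRLR*, the prolactin receptor (chr5:34842626-35482664), and 8 peaks lay around *FOXA1*, the pioneer factor of luminal cells, with the nearest at 0.812 kb (chr14:36856086-37641527). Another 8 began beside *KRT8* and *KRT18*, the luminal keratins, where 5 peaks lay within 85.9 kb and included widths of 820 and 718 bp (chr12:52895217-53845706). *NLGN1* and *NAALADL2* shared a cluster of 8 (chr3:174125385-175127498), and *TPRG1*, *TP63* and *P3H2* another (chr3:189103173-190230354), in which 2 peaks lay inside *TP63*, a transcription factor gene of basal epithelium, and 4 inside *TPRG1*.

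A pair of short clusters with 7 peaks each is given too, chosen after their lengths were seen. *DSCAM*, a neural cell adhesion gene on chromosome 21, held 7 peaks within 62.1 kb (chr21:40318652-40380789), or 11.3 per 100 kb. This was the densest among the 26 clusters with the most peaks. Some clusters with fewer peaks were denser, such as 5 peaks within 14.8 kb beside *XBP1* (33.7 per 100 kb) and 3 within 2.5 kb on chromosome 2 (120 per 100 kb). On chromosome 3, 7 peaks lay within 86.3 kb (chr3:18758161-18844449) between *SATB1*, a chromatin organizer 313 kb away, and *KCNH8* 304 kb away, with no annotated gene in the cluster. Counted by gene body, *GSE1* held 12 peaks, *AFF3* 9, *DSCAM* 7, *NAALADL2* 6, and *RAD51B*, *ARSG* and *NCAM2* 5 each.

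Genes of named lists were set beside all protein-coding genes, of which 5.6% overlapped a cluster and the median distance to a cluster was 4529 kb. Of 20 luminal transcription factors, 8 overlapped a cluster (40.0%, 95% interval 21.9 to 61.3): *ESR1*, *FOXA1*, *TFAP2A*, *TFAP2C*, *EHF*, *RARA*, *GRHL2* and *TRPS1*. Overlap counts any gene that lay at least partly between the first and last peak of a cluster. A peak lay in the body of 5 of these genes, and of 4.06% of all protein-coding genes. *FOXA1*, *RARA* and *TFAP2C* held none and were 0.812, 91.0 and 95.7 kb from the nearest peak. The *RARA* cluster held 15 protein-coding genes. The median distance to a cluster in this list was 197 kb, and *XBP1* lay 8.1 kb from a cluster of 5. *KLF5* was over 18 Mb away. Of 14 NuRD subunits, *CHD3* and *MTA2* overlapped a cluster (14.3%, 4.01 to 39.9), each in a region with many other genes, and *CHD4* did not.

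Gene families that stand in tandem arrays differed from each other. Of 392 olfactory receptor genes 3 overlapped a cluster (0.765%), and of 39 HOX genes none did, which allows a share of up to 8.97%. Among 517 zinc finger (ZNF) genes there were 18 (3.48%), and among 87 histone genes listed by symbol there was 1, *H2AX*. The symbol rule left out *H3-5*, a histone gene that overlapped a cluster of 5 peaks on chromosome 12. Of 55 keratin genes only *KRT8* and *KRT18* overlapped a cluster (3.64%). Protocadherin genes, which encode adhesion proteins, were the exception with 27 of 65 (41.5%), but all 27 lay in 1 cluster of 3 peaks on chromosome 5. The *PCDHA* and *PCDHAC* genes among them overlap and share exons, and the *PCDHB* genes do not overlap. The lists describe position only and were not tested.

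Larger regions were also uneven. Of 316 windows of 10 Mb, 37 held no peak and the median held 4, while 27 windows with at least 15 peaks held 521. The fullest was on chromosome 3 from 170 to 180 Mb with 31 peaks beside 25 expressed protein-coding genes, followed by chromosome 12 from 50 to 60 Mb with 27 peaks beside 128. Next came 3 windows with 25 peaks each, on chromosome 6 from 10 to 20 Mb, on chromosome 3 from 180 to 190 Mb and on chromosome 11 from 60 to 70 Mb, with 34, 44 and 188 expressed genes. The numbers of expressed genes thus differed several times among windows with similar numbers of peaks.

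The longest stretch without a peak covered 54.0 Mb of chromosome X (chrX:80808414-134806999). It held 235 protein-coding genes, from *HMGN5* to *PABIR2*, of which 86 (36.6%) were expressed, and no stretch without genes longer than 0.789 Mb. The next were 30.9 Mb on chromosome 9 and 27.2 Mb on chromosome 1, which each contained a long gene-free part (17.7 and 21.7 Mb). On chromosome 4, stretches of 26.8 and 20.2 Mb had 38 and 37 expressed genes. The other 5 of the 10 longest were on chromosomes 2 (17.9 and 17.5 Mb), 14 (17.6 Mb), 13 (16.6 Mb) and 6 (16.5 Mb). Together the 10 stretches made up 245.2 Mb, 8.09% of the span. They held 3.32 protein-coding genes per Mb, compared with 6.59 over the whole span, and 315 of 813 genes in them (38.7%) were expressed, compared with 55.2%. The last gene of the chromosome 6 stretch was *MYB* and that of the chromosome 13 stretch was *KLF5*, with peaks 32.3 and 56.1 kb from them. Both are on the list of luminal transcription factors and were picked out after the ends were seen. The first and last protein-coding genes of the stretches were otherwise not on that list.

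The median width of the peaks was 288 bp, with quartiles of 239 and 364 bp and a range of 207 to 1745 bp. The smallest width, 207 bp, was shared by 76 peaks. All peaks together covered 607 kb, 0.02% of the span. Across chromosomes the median ran from 267.5 bp on chromosome 20 to 307 bp on chromosome 17, and it showed no relation to peaks per Mb (r = −0.02, rho = 0.01 over 23 chromosomes). Of the 839 peaks in clusters 12% were wider than 500 bp, and of the 1005 others 6.27%. Of the 461 widest peaks 52.7% lay in clusters (95% interval 48.2 to 57.2), and of the 461 narrowest 42.7% (38.3 to 47.3). The medians were 299 bp in clusters of 8 or more peaks and 284 bp outside clusters.

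Of the 10 widest peaks 8 lay in clusters, which hold 45.5% of all peaks. The widest of all, 1745 bp, lay outside them on chromosome 2 (chr2:361283-363027), 53.6 kb from the nearest annotated protein-coding gene. The second, of 1555 bp, lay 17.9 kb from *SLC40A1*, the iron exporter ferroportin (chr2:189541091-189542645). Others of the 10 were those already described in the *TRPS1*, *EDN1* and *AFF3* clusters, the first peak of the *TBL1XR1* cluster with 1182 bp, a peak of 1207 bp on chromosome 8 that lay 34.3 kb from *C8orf34*, a peak of 1109 bp on chromosome 3 that lay 116 kb from *LPP*, a peak of 1228 bp between *KCNK2* and *KCTD3* (chr1:215475717-215476944) and a peak of 1224 bp in *EHF*, an epithelial ETS factor (chr11:34631371-34632594), part of whose sequence is printed above. The 3 narrowest by position order were of 207 bp each, in *CIMAP1D*, in *SNX8* and 0.293 kb from *GNA12*.

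The RNA of genes in clusters was then compared between silenced and control cells. A gene was called raised or fallen when it changed over 2-fold with an unadjusted p under 0.05 in edgeR's quasi-likelihood test. No gene passed an adjusted p of 0.05 (Benjamini-Hochberg over all tested genes) in either comparison, where the smallest adjusted p was 0.659 for *TRPS1* silencing and 0.749 for *CHD4* silencing, so every call below is unadjusted. At an unadjusted p under 0.05 there were 902 of 12921 genes (6.98%) and 75 of 883 in clusters (8.49%) for *TRPS1*, and 769 of 12918 (5.95%) and 68 of 888 in clusters (7.66%) for *CHD4*. DESeq2 gave 39 and 50 genes at an adjusted p under 0.05, and edgeR's likelihood ratio test gave 34 and 58. Upon silencing *TRPS1*, 25 of 883 tested genes in clusters were raised (2.83%), beside 2.70% of all tested genes, and 39 were fallen (4.42%), beside 3.17%. Upon silencing *CHD4*, 28 of 888 were raised (3.15%), beside 2.60%, and 37 were fallen (4.17%), beside 2.85%. With all libraries the shares of raised genes were near the background and those of fallen genes lay above it. Without single control libraries this held only in part, as given next. In 174 genes of clusters (19.7%) both *TRPS1* knockdown libraries lay above both controls, beside 22.8% of all genes, and in 220 (24.9%) below, beside 21.3%. For *CHD4* these were 140 (15.8%) beside 20.1% and 197 (22.2%) beside 19.7%. Both comparisons use the same control libraries.

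These counts rested on single libraries. For *TRPS1* silencing without control siRNA replicate 2, 137 genes in clusters were raised (15.5%, beside 19.2% of all tested genes) and 176 fallen (19.9%, beside 14.5%). Without control siRNA replicate 1 there were 55 raised (6.23%, beside 5.48%) and 25 fallen (2.83%, beside 2.52%). For *TRPS1* silencing the share of raised genes in clusters was below that of all genes without the second control library. The share of fallen genes stayed above that of all genes without the second control library and was near it without the first. Without *TRPS1* siRNA replicate 1 there were 4 raised (0.453%, beside 0.364%) and 8 fallen (0.906%, beside 0.387%), and without *TRPS1* siRNA replicate 2 there were 17 (1.93%, beside 0.867%) and 13 (1.47%, beside 0.844%). For *CHD4* silencing without control siRNA replicate 2, 118 were raised (13.3%, beside 17.5%) and 162 fallen (18.2%, beside 13.4%). Without control siRNA replicate 1 there were 53 raised (5.97%, beside 5.47%) and 26 fallen (2.93%, beside 2.15%). Without *CHD4* siRNA replicate 1 there were 5 raised (0.563%, beside 0.503%) and 12 fallen (1.35%, beside 0.426%), and without *CHD4* siRNA replicate 2 there were 14 (1.58%, beside 1.13%) and 18 (2.03%, beside 1.05%). The median log2 fold change of genes in clusters was −0.16 in both comparisons, beside −0.02 for all tested genes. Without control siRNA replicate 1 it was 0.06 upon silencing *TRPS1* and 0.04 upon silencing *CHD4*, beside 0.02 and 0.01, so the lower median was not seen without that library. Scaling by library size alone moved the median of all genes to 0.1 and 0.11 and that of genes in clusters to −0.03 in both. For *TRPS1* 35 genes in clusters were then raised (3.96%, beside 3.79% of all tested genes) and 26 fallen (2.94%, beside 1.96%). For *CHD4* 34 were raised (3.83%, beside 3.55%) and 28 fallen (3.15%, beside 1.72%).

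Of the first 30 protein-coding genes by number of peaks in their cluster, 24 were tested, and the plot of their levels shows the 6 libraries. Upon silencing *TRPS1* none was called raised and 1 was called fallen, and upon silencing *CHD4* none was raised and 2 were fallen. With 2.70% and 3.17% of all tested genes called for *TRPS1*, and 2.60% and 2.85% for *CHD4*, so few calls among 24 genes are no result about them. *MAP6D1*, a microtubule-binding protein gene in a cluster of 9 on chromosome 3, measured 125 and 126 CPM in controls and 49.5 and 36.9 CPM after *TRPS1* siRNA (log2 fold change −1.54 ± 0.35 SE, unadjusted p = 0.00369). After *CHD4* siRNA it measured 54.6 and 28.2 CPM (−1.60 ± 0.44, unadjusted p = 0.00749). *PHACTR1* measured 65.5 and 53.0 CPM in controls, 97.4 and 70.8 CPM after *TRPS1* siRNA and 33.4 and 20.7 CPM after *CHD4* siRNA. It was below both controls in the *CHD4* libraries only (−1.13 ± 0.43, unadjusted p = 0.0311), and the difference between the knockdowns was not tested.

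**Figure D4:**
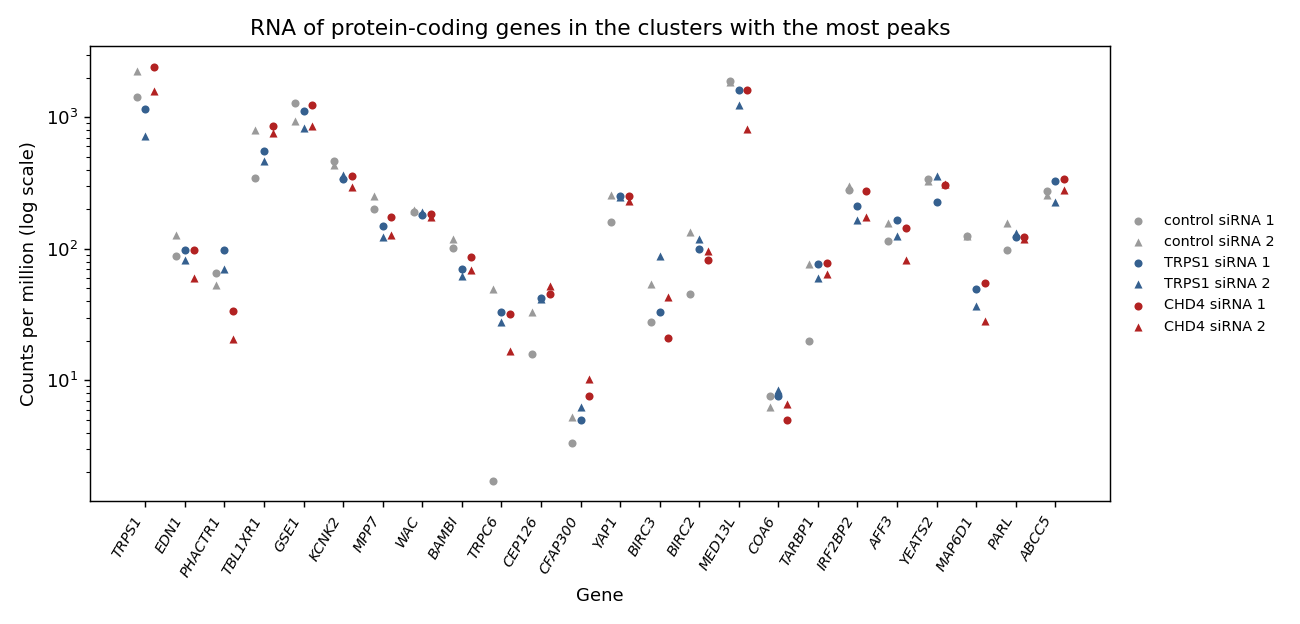
CPM on a log axis for the 24 tested protein-coding genes of the clusters with the most peaks, with circles for replicate 1 and triangles for replicate 2 of control siRNA (grey), *TRPS1* siRNA (blue) and *CHD4* siRNA (red). *MAP6D1* lies below both controls in all 4 knockdown libraries, and the control replicates of *TRPC6* stand far apart.

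Values are given for some of these genes. *GSE1*, with 12 peaks in its body, measured 1293 and 937 CPM in controls and 1116 and 822 CPM after *TRPS1* siRNA, so the groups overlapped (−0.20 ± 0.34). *AFF3*, with 9, measured 114 and 156 CPM in controls and 165 and 126 CPM after *TRPS1* siRNA, also overlapping (0.11 ± 0.35). *MED13L* measured 1874 and 1850 CPM in controls and 1615 and 1245 CPM after *TRPS1* siRNA, below both controls without passing the call (−0.38 ± 0.31). With *TRPC6*, a calcium channel gene of the chromosome 11 cluster, the controls themselves lay at 1.73 and 49.5 CPM and its *TRPS1* knockdown libraries at 33.3 and 27.9 CPM. Its log2 fold change was 0.26 with both controls, −0.69 without control siRNA replicate 1 and 4.14 without control siRNA replicate 2.

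Among the 8 luminal transcription factors in clusters no gene passed the call in either comparison, *TRPS1* included. With 2.70% of all tested genes raised and 3.17% fallen for *TRPS1*, and 2.60% and 2.85% for *CHD4*, this is no result about them. Upon silencing *TRPS1* both knockdown libraries lay below both controls in 21.3% of all tested genes and above in 22.8%. *TFAP2A*, an AP-2 factor, came near it upon silencing *TRPS1*, at 140 and 105 CPM in controls and 70.5 and 54.6 CPM in knockdown (−0.97 ± 0.35, unadjusted p = 0.0318). *ESR1* was also lower in both knockdown libraries, at 264 and 391 CPM against 195 and 233 CPM (−0.61 ± 0.35). *GRHL2* was lower too, at 495 and 492 CPM against 379 and 340 CPM (−0.46 ± 0.30). *FOXA1* overlapped between groups, at 257 and 287 CPM against 268 and 188 CPM, as did *TFAP2C* and *RARA*. *EHF* was higher in both knockdown libraries, at 348 and 559 CPM against 690 and 646 CPM (0.56 ± 0.35).

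*KRT8* was the most abundant gene in clusters that passed the call in both comparisons. It measured 5119 and 3285 CPM in controls, 1058 and 1222 CPM after *TRPS1* siRNA (−1.88 ± 0.35, unadjusted p = 0.00142) and 1194 and 1136 CPM after *CHD4* siRNA (−1.85 ± 0.37, unadjusted p = 0.00133). Its partner *KRT18* passed the call only for *CHD4*, at 873 and 694 CPM against 2561 and 1710 CPM in controls (−1.45 ± 0.38), while after *TRPS1* siRNA it measured 1118 and 1141 CPM (−0.92 ± 0.33). *H2AX*, the histone variant of the DNA damage response, was called fallen in both, but its controls lay far apart at 377 and 113 CPM beside 58.8 and 85.2 CPM after *TRPS1* siRNA. Of the NuRD genes, *CHD3* overlapped between groups and *MTA2* measured 237 and 144 CPM in controls and 134 and 124 CPM after *TRPS1* siRNA (−0.56 ± 0.37).

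Of the 27 protocadherin genes in the chromosome 5 cluster, 24 were tested upon silencing *TRPS1* and none passed the call. In 15 of them both knockdown libraries lay above both controls, beside 22.8% of all tested genes. Upon silencing *CHD4* this held for 16 of 25, beside 20.1%. At several of them control siRNA replicate 1 had no count, such as *PCDHA12* with 0.0 and 4.16 CPM in controls and 6.13 and 5.79 CPM after *TRPS1* siRNA. Reads of the overlapping *PCDHA* and *PCDHAC* genes cannot be assigned to 1 gene with certainty.

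In the 24 clusters of 8 or more peaks, 207 protein-coding genes were tested upon silencing *TRPS1*, of which 5 were called raised (2.42%, beside 2.70% of all tested genes) and 9 fallen (4.35%, beside 3.17%). These genes are named because they passed the call, that is, after their values were seen. The raised genes were *NAALADL2*, *TP63*, *TMPRSS4*, *DNAH2* and *GANAB*. *NAALADL2*, a glutamate carboxypeptidase-like gene with 6 peaks in its body, measured 17.8 and 40.9 CPM in controls and 201 and 150 CPM in knockdown (2.58 ± 0.50, unadjusted p = 0.00166). *TP63* measured 1.95 and 1.86 CPM against 14.0 and 5.73 CPM (2.36 ± 0.65, unadjusted p = 0.00953). *GANAB*, a glucosidase subunit of the endoplasmic reticulum, rose from 435 and 507 CPM to 903 and 981 CPM (1.00 ± 0.31). *TMPRSS4*, a membrane serine protease gene, was near the limit of detection in controls (0.144 and 0.446 CPM) and measured 6.51 and 3.32 CPM in knockdown.

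The fallen genes included *KRT8*, *MAP6D1*, *H2AX*, *PHLDB1*, *RNF26*, *B3GAT3*, *ESPL1* and *INCENP*. *INCENP* and *ESPL1* act in chromosome segregation, and the former measured 307 and 129 CPM in controls and 59.6 and 107 CPM in knockdown. At *INCENP*, *RNF26*, *PHLDB1* and *B3GAT3*, as at *H2AX*, control siRNA replicate 1 lay well above control siRNA replicate 2.

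Upon silencing *CHD4*, 209 protein-coding genes of these clusters were tested, of which 7 were raised (3.35%, beside 2.60% of all tested genes) and 7 fallen (3.35%, beside 2.85%). *NAALADL2* measured 176 and 106 CPM (2.26 ± 0.53) and *TP63* measured 24.7 and 7.31 CPM (3.06 ± 0.72). The other raised genes were *TMPRSS4*, *DNAH2*, *CHRD*, *ATP1B2* and *MPZL3*. *MPZL3*, a membrane protein gene of the epidermis, measured 35.3 and 73.3 CPM in controls and 129 and 118 CPM in knockdown (1.18 ± 0.45). The fallen genes were *KRT8*, *KRT18*, *MAP6D1*, *PHACTR1*, *H2AX*, *B3GAT3* and *INCENP*. No gene of these clusters was thus called in 1 direction after *TRPS1* siRNA and in the other after *CHD4* siRNA, in comparisons that share their controls.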

How the data were processed

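ChIP-seq of TRPS1 (2 libraries, 2 inputs) and RNA-seq (3 groups of 2 libraries) of T47D cells were used. Per the submitters' processing notes and methods, ChIP reads were trimmed, aligned to hg38 with BWA 0.7.12-r1039 and peaks called with MACS2 2.1.1. The deposited list gives start and end only, and whether replicates were pooled is not given in the sources used here. The authors deposited raw counts per gene symbol (rRNA-depleted RNA, HTSeq 0.9.0), 10333138 to 14668358 per library. The labels name an siRNA for *CHD4* and the methods an shRNA.

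Peaks were counted against the RefSeq GRCh38.p14 gene table (no genome sequence was used here), so chromosome length is the span between its first and last gene. Of 19695 counted symbols, 95.8% matched it. Genes over 2 CPM in at least 2 of 4 libraries were tested with edgeR 4.0.16 (R 4.3.3; quasi-likelihood, TMM, no block), and CPM values are TMM-scaled. Alternatives were DESeq2 1.42.0, other scalings, filters, cluster rules and leaving out libraries. Same-numbered libraries did not deviate together (r = 0.0606 and 0.0128), so the numbers were not taken as pairs. Tested on simulated data with 200 genes changed 4-fold at the observed dispersion (0.142 for *TRPS1*, 0.151 for *CHD4*), the fit found 179 and 191 of them and called 633 and 613 unchanged genes over 2-fold at unadjusted p under 0.05.

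No sequence from chromosome 8 is printed. Clusters named are those with 8 or more peaks, and any other is described because of its length or of a listed gene family, after its values were seen. Genes named are the first 30 protein-coding genes in those with 8 or more by number of peaks and position, the targeted genes and members of the lists in clusters, and other called genes are marked as named after their values were seen. A called gene of these clusters is not reported here by name. Also named are the 10 widest and 3 narrowest peaks, the 10 longest stretches without a peak, and the 5 chromosomes at each end of the density order. Members, lists and rules were chosen with earlier results of these data known.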

Additional observations from a re-analysis of the deposited data

Results flagged for a closer look

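There were 2 peaks on sequences outside chromosomes 1 to 22 and X, which the counts per chromosome leave out. 1 was a peak of 340 bp on an unplaced sequence assigned to chromosome 1, and the other was a peak of 246 bp on a sequence assigned to no chromosome. Both were within the middle of the width distribution, and neither sequence has a span in the gene table, so no density was computed for them.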

How the results depend on the processing

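Peaks in clusters numbered 839 in 178 clusters. They numbered 554 within 250 kb, 520 in 88 clusters with 4 or more peaks required, and 268 in 66 clusters among the peaks above the median width, the stand-in for a stricter list. With these wider peaks, chromosome 19 had 0.666 and X 0.0962 peaks per Mb and 80.2% of 1 Mb windows were empty, and with clusters and single peaks each counted once chromosome 19 had 0.751. Chromosomes 19 and X were at the ends of the order in each of these settings and without gene-free stretches (an alternative chosen after seeing the data). The alternative with chromosome lengths was not run for want of a genome. Raised and fallen genes in clusters upon silencing *TRPS1* numbered 44 and 69 with no filter on low counts, 10 and 12 in clusters within 250 kb, and 14 and 19 in clusters of 4 or more. For *CHD4* they numbered 48 and 75, 8 and 16, and 10 and 16. With no filter the shares were 3.91% and 6.14% for *TRPS1*, beside 3.34% and 3.81% of all tested genes. For *CHD4* they were 4.24% and 6.63%, beside 3.85% and 3.55%. Shares were not computed for the other cluster rules, which used the main fit. Leaving out 1 library at a time gave 4 to 137 raised and 8 to 176 fallen for *TRPS1*, and 5 to 118 and 12 to 162 for *CHD4*. With the replicate number as a block, 61 were raised (6.91%, beside 5.73% of all tested genes) and 50 fallen (5.66%, beside 3.71%) for *TRPS1*. For *CHD4* there were 41 (4.62%, beside 4.51%) and 40 (4.5%, beside 2.93%), although the numbers did not pair the libraries. Where a single library was left in a group, it was assumed to vary like the other group. The causes of these shifts were not tested.

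The main limits are 1 peak list without scores or replicate calls, spans in place of chromosome lengths, and 2 RNA libraries per group with controls that stand apart, which left no gene past an adjusted p of 0.05 in the quasi-likelihood fit. Depth of the ChIP libraries is unknown here, so a stretch without a listed peak is a stretch in which none was called.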
